A study of Homo sapiens with 6 samples.

Results

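The integrated stress response and the unfolded protein response were examined through 38 genes, of 27734 genes that could be named in the table, in U87, an established human glioblastoma cell line. The genes were taken from a fixed list of names, and each was read from its RefSeq transcript accession with the highest base mean. They comprised 21 targets of the transcription factor ATF4, 8 folding genes of the endoplasmic reticulum (ER), 4 genes of ER-associated degradation, and 5 regulators. RNA was sequenced from 3 libraries of U87 cells labelled EGFR+vIII and 3 labelled EGFR+vIII TLR2 KO. EGFR is a receptor of growth factors, vIII its deletion mutant that signals without a ligand, and TLR2 a receptor of innate immunity. Both groups carry the EGFR+vIII label, so the only labelled difference is the TLR2 knockout. No treatment or time is named. It is not stated whether the knockout is 1 clone, or whether the libraries of a group are separate cultures. The p-values therefore rest on the variation among 3 libraries per group, and that variation may be technical.

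In the integrated stress response, kinases such as EIF2AK3 (PERK) phosphorylate the initiation factor eIF2, which slows translation of most mRNAs while that of ATF4 rises. ATF4 then switches on genes for amino acid synthesis and uptake, and feedback genes such as PPP1R15A, which restores translation. The unfolded protein response senses misfolded protein in the ER through EIF2AK3, ERN1 (IRE1) and ATF6, and ERN1 splices the mRNA of XBP1. ATF6 and spliced XBP1 induce ER chaperones, disulfide isomerases and the machinery that carries misfolded proteins out for degradation. Glioblastoma cells are known for high demand on amino acid supply and on secretion, which both programmes serve.

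The values come from the authors' own comparison, which gives 1 fitted value per accession and none per library. It lists a base mean (the mean over the 6 libraries of counts divided by size factors), a log2 fold change with its standard error (SE), and an adjusted p from the DESeq2 Wald test. Whether the libraries of the groups overlap for a gene is therefore not known. The knockout is read as the numerator of every fold change, since the table names it first. All 8 accessions of TLR2 are listed at 0 in the authors' deposited table, so this order could not be checked on the targeted gene, and every direction would reverse if it were the opposite. EGFR, the other gene of the labels, has 9 accessions with a highest base mean of 1.32 in the authors' deposited table, so its label could not be checked either. In bulk RNA, a change in every cell and a change in a share of the cells cannot be told apart. The base means of the authors' deposited table sum to 11240272 normalized reads per library. Markers of the line were mixed: VIM (base mean 126476) and TNC (90344) were abundant in the authors' deposited table. OLIG2 (51.6) and CD44 (26.7) had few reads, and GFAP and S100B were listed at 0, in the authors' deposited table. NES (log2 fold change 1.01, SE 0.12) and CHI3L1 (3.01, SE 0.24) were higher and SOX2 (-2.45, SE 0.30) and VIM (-0.29, SE 0.08) lower in the knockout in the authors' deposited table. Of the defining markers of other cells, PTPRC, CD14, ITGAM, CDH1, RBFOX3, SYT1 and SNAP25 were also listed at 0, while KDR (556), PECAM1 (159), CD68 (42.6), VWF (13.5), CD3E (2.47), MAP2 (1.16) and CDH5 (0.539) had reads in the authors' deposited table. The epithelial keratins KRT5 (base mean 10.3, log2 fold change 1.83, SE 0.38) and KRT14 (7.01, 1.39, SE 0.36) were higher in the knockout in the authors' deposited table, with EPCAM at 22.4, KRT18 at 0.338 and CDH1 at 0. A listing at 0 is no evidence that a marker is absent, as described below. The part of these marker differences in the results was not tested.

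Transporters of cystine and of large neutral amino acids and the serine synthesis enzyme PSAT1 were higher in the knockout. PSPH, another enzyme of serine synthesis, was lower, and the other ATF4 targets with an adjusted p did not pass the test. Genes of ER folding and degradation with an adjusted p were lower or did not pass. Of the 38 genes, 27 carried an adjusted p, 3 had too few reads for one, and 8 were listed at 0 in the authors' deposited table. Of the 27, 3 rose (SLC7A11, PSAT1 and SLC7A5) and 5 fell (PSPH, EDEM1, SEL1L, PDIA3 and ATF6) at an adjusted p under 0.05 in the authors' deposited table. The background was 23.5% of the 10303 accessions with an adjusted p, 11.6% higher and 11.9% lower. Taken as genes, each by its accession of highest base mean, it was 25.1% of 9370, 12.3% higher and 12.7% lower. All 8 called genes had a base mean of at least 100, a level that 16 of the 38 genes reached. Among the 4308 accessions at that level the called share was 43.0%, 19.9% higher and 23.1% lower, against 8 of 16 here, so the number of called genes was close to the background.

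**Figure D1:**
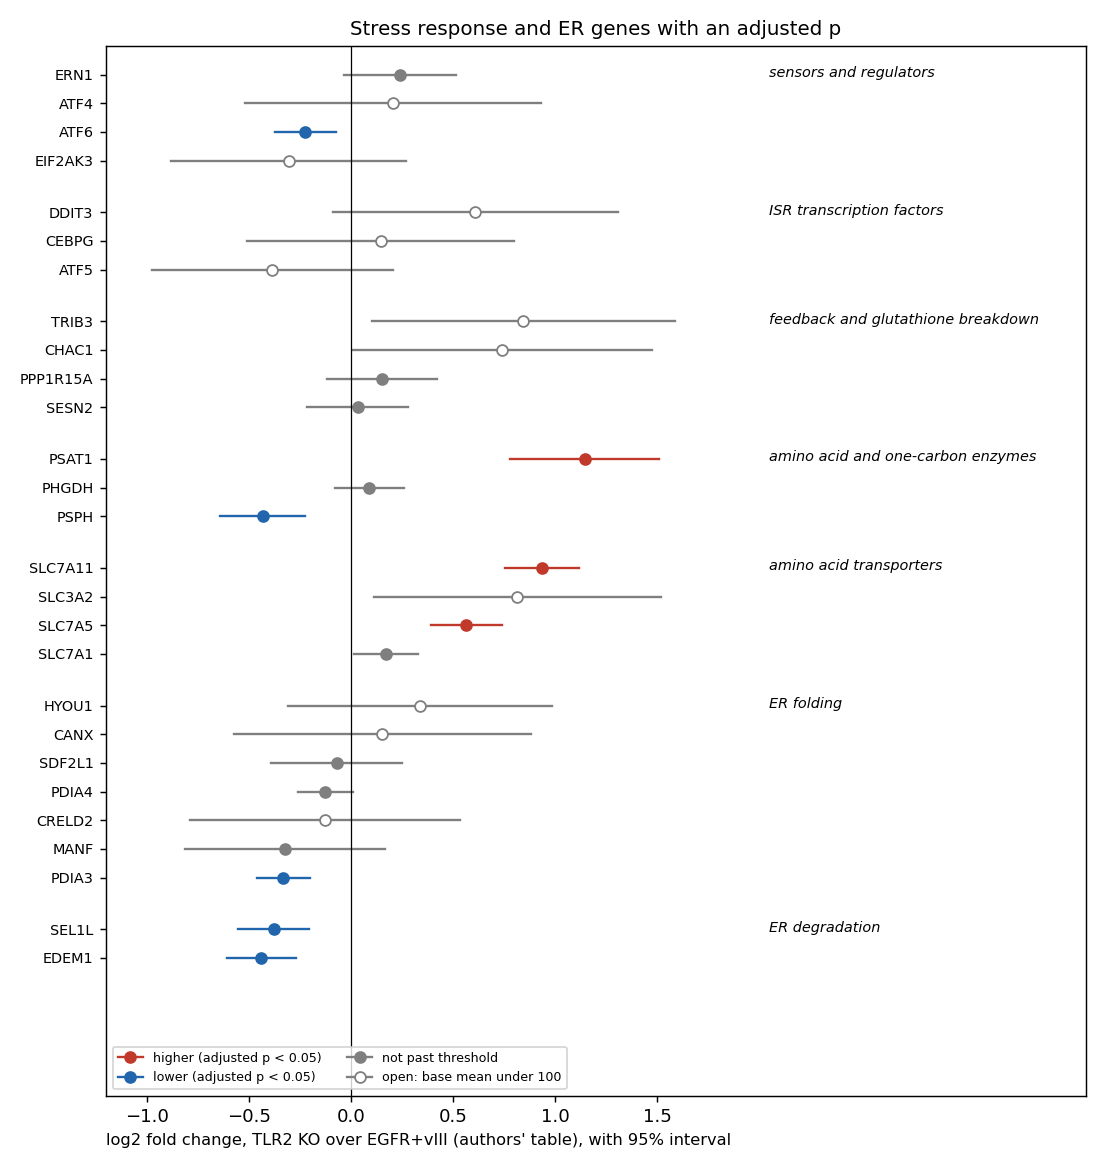
Log2 fold change (x axis, knockout over EGFR+vIII, authors' deposited values) of the 27 genes with an adjusted p, grouped by role, with 95% intervals. Filled points have a base mean of at least 100 and open points fewer reads; 3 genes are higher (red), 5 lower (blue) and 19 did not pass (grey).

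Per group, ATF4 targets had 3 higher and 1 lower of 14 with an adjusted p, with a median log2 fold change of 0.37. ER folding genes had 0 higher and 1 lower of 7, with a median of -0.13, and ER degradation genes had 2 lower of 2, with a median of -0.41. The called shares were 28.6% of ATF4 targets, 14.3% of ER folding genes and 100% of the 2 ER degradation genes, against 25.1% of all genes. At a base mean of at least 100 they were 50%, 25% and 100%, against 43.0% of accessions. The median over all tested accessions was 0.02. Among genes with a base mean of at least 100, the median was 0.16 for 8 ATF4 targets, -0.23 for 4 ER folding genes and 0.0045 for all accessions at that level. At that level 7 of 8 ATF4 targets lay above 0, and all 6 ER folding and degradation genes lay below 0. The contrast between ATF4 targets and ER folding genes was not tested, because the table has no value per library.

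How much was read of each gene differed with the number of accessions it has. Of 15 genes with 1 accession, 14 had a base mean of at least 100, and of 23 genes with 2 or more accessions, 2 did (PSAT1 and SEL1L). Over the whole table the shares were 21.9% of 15498 genes with 1 accession and 6.84% of 12236 genes with more. The 8 genes listed at 0 in the authors' deposited table were ASNS (7 accessions), SHMT2 (9), VLDLR (4), CEBPB (3), CTH (3), XBP1 (2), SYVN1 (2) and MTHFD2 (1). Such a 0 is no evidence of silence: GAPDH, made by every cell and chosen here after its values were seen, has a highest base mean of 6.19 in the authors' deposited table. Asparagine synthetase (ASNS), the mitochondrial one-carbon enzymes SHMT2 and MTHFD2, and the spliced and unspliced forms of XBP1 therefore remain without a value.

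**Figure D2:**
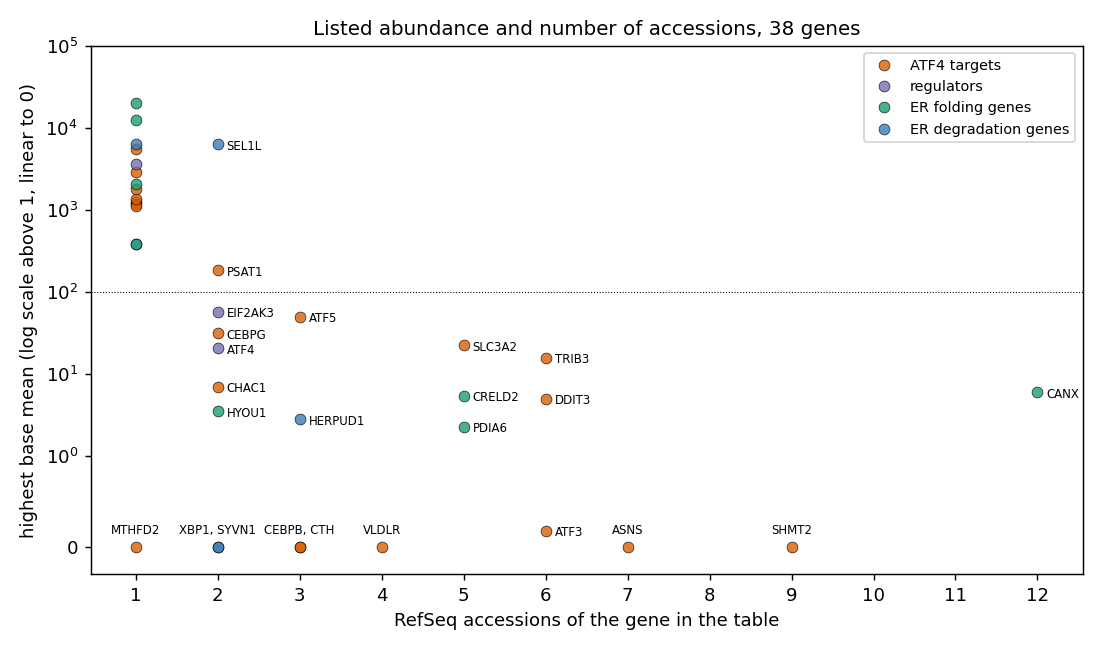
Highest base mean of each of the 38 genes (y axis, log scale above 1 and linear to 0) against its number of RefSeq accessions (x axis). Of the genes with 1 accession, 14 of 15 lie above the dotted line at 100, and of the others 2 of 23.

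Promoter sequence was taken from RefSeq (GRCh38.p14) as windows of 300 bases, 250 before and 50 after a gene's start. Of the 38 genes, 34 matched, in 52 windows. PDIA3, PSPH, SHMT2 and SLC7A11 had no entry. On both strands, the C/EBP-ATF element (TGATGNAAN), to which ATF4 dimers bind, was found in 6 of 18 ATF4 targets (ASNS, ATF3, CEBPG, CHAC1, SLC3A2 and SLC7A1), 0 of 7 ER folding genes and 1 of 4 ER degradation genes (HERPUD1). Among all 27305 genes with a window, in 35116 windows, 4.45% held it in any of their windows. The ER stress element (CCAAT, 9 bases, CCACG), to which ATF6 with NF-Y binds, was found in CANX, CRELD2, PDIA6 and XBP1, and its second form (ATTGG, 1 base, CCACG) in HYOU1, SDF2L1 and HERPUD1. These were held by 0.0916% and 0.0696% of all genes. The UPR element (TGACGTGG) was found in HYOU1, where it overlaps an ER stress element of the second form, and the palindromic cAMP response element (TGACGTCA) in PPP1R15A, against 0.927% and 2.25% of all genes. A match describes the letters and is not a site shown to be used, and a missing match says only that these letters are not in this window.

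Both kinds of promoter are shown for 6 genes, followed by 2 called genes whose windows held none of the 5 motifs. Capitals mark the motif matches, and each line runs 5′ to 3′ on the strand of the gene. CHAC1 lies at chr15:40953221-40953520 (plus strand), SLC3A2 at chr11:62881449-62881748 (plus), SLC7A1 at chr13:29595639-29595938 (minus), HERPUD1 at chr16:56931892-56932191 (plus), SDF2L1 at chr22:21642052-21642351 (plus), HYOU1 at chr11:119057156-119057455 (minus), PSAT1 at chr9:78296875-78297174 (plus) and EDEM1 at chr3:5187457-5187756 (plus).
CHAC1: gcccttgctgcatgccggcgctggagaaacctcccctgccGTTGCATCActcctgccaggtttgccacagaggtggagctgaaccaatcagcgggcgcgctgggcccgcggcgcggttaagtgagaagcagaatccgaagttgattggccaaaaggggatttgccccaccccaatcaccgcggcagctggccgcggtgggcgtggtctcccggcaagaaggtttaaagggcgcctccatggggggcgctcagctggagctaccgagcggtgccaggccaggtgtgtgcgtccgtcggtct
SLC3A2: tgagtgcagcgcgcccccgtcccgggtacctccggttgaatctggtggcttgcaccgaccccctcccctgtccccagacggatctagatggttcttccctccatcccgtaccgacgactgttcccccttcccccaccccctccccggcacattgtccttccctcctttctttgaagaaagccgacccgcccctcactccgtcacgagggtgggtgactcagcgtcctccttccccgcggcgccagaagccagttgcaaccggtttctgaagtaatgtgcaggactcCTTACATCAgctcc
SLC7A1: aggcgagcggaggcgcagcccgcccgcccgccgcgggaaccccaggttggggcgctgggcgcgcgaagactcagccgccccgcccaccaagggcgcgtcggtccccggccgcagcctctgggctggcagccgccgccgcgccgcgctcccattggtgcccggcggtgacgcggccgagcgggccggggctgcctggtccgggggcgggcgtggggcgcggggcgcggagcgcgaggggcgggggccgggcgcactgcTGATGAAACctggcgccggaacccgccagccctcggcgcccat
HERPUD1: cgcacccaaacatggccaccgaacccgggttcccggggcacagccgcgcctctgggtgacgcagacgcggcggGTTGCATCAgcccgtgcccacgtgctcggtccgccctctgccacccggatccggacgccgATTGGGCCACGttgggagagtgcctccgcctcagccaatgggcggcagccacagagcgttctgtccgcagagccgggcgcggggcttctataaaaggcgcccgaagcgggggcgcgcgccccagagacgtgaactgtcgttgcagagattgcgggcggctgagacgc
SDF2L1: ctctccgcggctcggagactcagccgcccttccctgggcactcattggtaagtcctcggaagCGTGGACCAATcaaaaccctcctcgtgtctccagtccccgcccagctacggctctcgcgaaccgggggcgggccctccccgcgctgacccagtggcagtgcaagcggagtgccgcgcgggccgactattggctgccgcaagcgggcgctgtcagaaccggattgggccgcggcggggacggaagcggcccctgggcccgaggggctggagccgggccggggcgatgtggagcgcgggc
HYOU1: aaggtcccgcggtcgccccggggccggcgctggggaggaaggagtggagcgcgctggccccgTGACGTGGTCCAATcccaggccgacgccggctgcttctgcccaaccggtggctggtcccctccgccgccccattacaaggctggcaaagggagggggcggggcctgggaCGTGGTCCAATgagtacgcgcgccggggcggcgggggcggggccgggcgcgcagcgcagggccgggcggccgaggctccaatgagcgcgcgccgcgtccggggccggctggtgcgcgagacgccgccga
PSAT1: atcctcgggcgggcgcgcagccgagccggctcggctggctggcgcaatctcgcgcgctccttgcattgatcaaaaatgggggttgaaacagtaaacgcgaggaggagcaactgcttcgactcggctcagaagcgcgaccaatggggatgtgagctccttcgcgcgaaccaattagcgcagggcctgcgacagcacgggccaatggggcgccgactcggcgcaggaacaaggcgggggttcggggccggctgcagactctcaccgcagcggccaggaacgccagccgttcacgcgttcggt
EDEM1: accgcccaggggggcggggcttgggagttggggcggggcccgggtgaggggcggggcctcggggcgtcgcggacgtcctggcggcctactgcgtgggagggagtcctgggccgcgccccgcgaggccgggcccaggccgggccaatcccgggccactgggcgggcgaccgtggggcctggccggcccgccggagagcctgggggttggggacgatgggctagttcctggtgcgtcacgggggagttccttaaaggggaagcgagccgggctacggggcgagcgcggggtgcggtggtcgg

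The match began 210 bases before the start of CHAC1, and HERPUD1 carries a C/EBP-ATF element 177 bases and an ER stress element of the second form 117 bases before its start. In SLC7A1 the match lay 8 bases after the start. In SLC3A2 it lay 37 bases after the start used for the window shown, and the windows at other starts of this gene held no match. HYOU1 holds the second form at 185 and at 79 bases before its start. No match to the 5 motifs was found in the windows of PSAT1, SLC7A5, EDEM1, SEL1L or ATF6, the 5 called genes with an entry. Of the 14 genes with a match, 0 were called, but 3 of them (SLC7A1, SDF2L1 and PPP1R15A) had a base mean of at least 100. The others had fewer reads, no adjusted p or a listing at 0, so nothing is read from that count.

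Among the regulators, ATF6 fell, ATF4, ERN1 and EIF2AK3 did not pass, and XBP1, listed at 0, could not be tested. ATF6, the membrane-bound factor that is cut free when the ER is stressed, had a base mean of 3606 and a log2 fold change of -0.22 (SE 0.08, 95% interval -0.37 to -0.08, adjusted p = 0.0164) in the authors' deposited table. The fit corresponds to 3325 normalized reads per knockout library and 3886 per EGFR+vIII library. Relative to its 10 neighbouring genes on chromosome 1, whose median was -0.09, ATF6 had -0.13 (adjusted p = 0.217), and the call was also lost with an adjusted p under 0.01. ATF4 itself was thinly read, with a base mean of 20.6, and its log2 fold change of 0.20 (SE 0.37 and adjusted p = 0.781) in the authors' deposited table spans -0.52 to 0.93. ERN1, the kinase and nuclease IRE1, had 0.24 (SE 0.14 and adjusted p = 0.238) and EIF2AK3, the kinase PERK, had -0.31 (SE 0.29 and adjusted p = 0.546) in the authors' deposited table.

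The stress-induced transcription factors had few reads or were listed at 0. ATF5 (base mean 49.9) showed a log2 fold change of -0.39 (SE 0.30 and adjusted p = 0.426), and CEBPG (31.1), a partner of ATF4 in dimers, had 0.15 (SE 0.33 and adjusted p = 0.835) in the authors' deposited table. The second tested accession of ATF5 went the other way, at 0.29 (SE 0.31). DDIT3, the death-promoting factor CHOP, had 29.8 normalized reads over all 6 libraries and a log2 fold change of 0.61 (SE 0.36 and adjusted p = 0.237) in the authors' deposited table. ATF3 is listed with 1 read in 1 library, and CEBPB at 0. Neither a rise nor a fall was detected for ATF5, CEBPG or DDIT3, and ATF3 and CEBPB were not tested.

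Feedback genes did not pass, and split by depth. TRIB3, a pseudokinase that restrains ATF4, had a base mean of 15.6 and a log2 fold change of 0.84 (SE 0.38 and adjusted p = 0.095) in the authors' deposited table. CHAC1, which breaks down glutathione, had 6.9 and 0.74 (SE 0.37 and adjusted p = 0.152) in the same columns of the authors' deposited table. Both intervals lie above 0, with lower ends of 0.10 and 0.01 before adjustment. The deeply read PPP1R15A (base mean 1264), the phosphatase subunit GADD34, had 0.15 (SE 0.14 and adjusted p = 0.508), and SESN2 (1194), a leucine-sensing inhibitor of mTORC1, had 0.03 (SE 0.13 and adjusted p = 0.907) in the authors' deposited table. Their intervals, -0.12 to 0.42 and -0.21 to 0.28, leave out a 1.5-fold change in either direction.

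The 3 enzymes of serine synthesis went separate ways. PHGDH, the first step, had a base mean of 2920 and a log2 fold change of 0.09 (SE 0.09 and adjusted p = 0.551) in the authors' deposited table. PSAT1, the second step, rose 2.21-fold, by 1.15 on the log2 scale (SE 0.19 and adjusted p = 1.46e-08) in the authors' deposited table. PSPH, the last step, fell by 0.43 on the log2 scale (SE 0.11 and adjusted p = 0.000404) in the authors' deposited table. The fitted levels per library were 251 normalized reads of PSAT1 in the knockout and 114 in EGFR+vIII, and 950 and 1283 of PSPH. The intervals of PHGDH (-0.08 to 0.26), PSAT1 (0.78 to 1.51) and PSPH (-0.64 to -0.22) did not overlap, and the differences between the genes were not tested. Per kilobase of transcript, base means were 1393 for PHGDH, 524 for PSPH and 83.4 for PSAT1, but PSAT1 has 2 accessions and its listed level may leave out reads.

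The surroundings of these genes differed as well. All 10 neighbours of PHGDH on chromosome 1 lay above 0 (median 0.40), and relative to them PHGDH was lower by -0.31 (adjusted p = 0.00157). Of the 10 neighbours of PSAT1 on chromosome 9, 9 lay above 0 (median 0.32), and PSAT1 kept 0.82 relative to them. The neighbours of PSPH on chromosome 7 had a median of 0.02. PSPH has a pseudogene copy, PSPHP1, and whether reads were shared with it was not tested. The part of the neighbourhood in these results was not tested.

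Of the 4 amino acid transporters, 2 rose (SLC7A11 and SLC7A5) and 2 did not pass (SLC7A1 and SLC3A2). The background was 12.3% of all genes higher, and 19.9% of accessions with a base mean of at least 100. SLC7A11, the cystine importer xCT that feeds glutathione synthesis, rose 1.91-fold, by 0.94 on the log2 scale (SE 0.09, 95% interval 0.75 to 1.12, adjusted p = 2.14e-22) in the authors' deposited table. The fit corresponds to 1774 normalized reads per knockout library and 928 per EGFR+vIII library. Its Wald score lay above that of 99.2% of tested accessions. SLC7A5, the leucine importer LAT1, rose by 0.57 on the log2 scale (SE 0.09 and adjusted p = 3.68e-09) in the authors' deposited table, or 2162 against 1461 normalized reads per library. SLC7A1, a carrier of arginine and lysine, had 0.17 (SE 0.08 and adjusted p = 0.116) at a base mean of 5498 in the authors' deposited table. The neighbours of SLC7A11 and SLC7A5 had medians of 0.02 and -0.16.

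SLC3A2 is the heavy chain that carries both SLC7A11 and SLC7A5 to the cell surface. Its 4 accessions with reads had log2 fold changes of 0.81 (SE 0.36), 0.63 (SE 0.38), 0.65 (SE 0.38) and 0.75 (SE 0.31) in the authors' deposited table, with base means of 22.3, 16.3, 9.67 and 3.49. None passed on its own, with adjusted p of 0.0867, 0.262, 0.241 and 0.0683 in the authors' deposited table. The transcript with the highest base mean, at 0.81, carries a non-coding RefSeq label. Averaged by inverse variance over its accessions, SLC3A2 had 0.72 (adjusted p = 0.00041), a step that treats the accessions as independent although they come from the same libraries. The median of its 10 neighbours, 5 of them small nucleolar RNAs, was 0.56, and relative to them SLC3A2 had 0.26 (adjusted p = 0.684). SLC7A11 is also a target of NRF2, the factor of the oxidative stress response. Of 10 further NRF2 targets, 5 carried an adjusted p, and HMOX1 was the 1 that rose (0.42, SE 0.13) in the authors' deposited table. Over all genes with an adjusted p, 12.3% rose. HMOX1 was not called relative to its neighbours, where OSGIN1 and SRXN1 were.

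**Figure D3:**
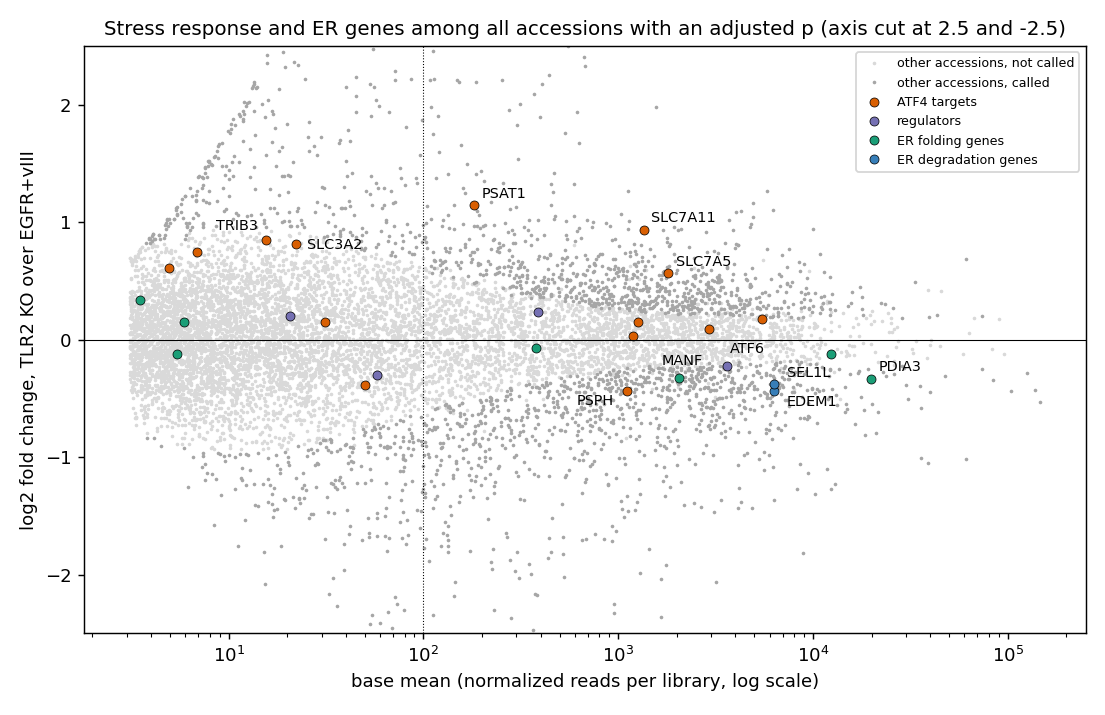
Log2 fold change (y axis, knockout over EGFR+vIII) against base mean (x axis, log scale) of the accessions with an adjusted p in grey, darker where called and drawn only between -2.5 and 2.5, with the 27 genes in colour. The called ATF4 targets SLC7A11, PSAT1 and SLC7A5 lie at 0.94, 1.15 and 0.57, and the called ATF4 target PSPH at -0.43. The called genes of ER folding and degradation lie at -0.33 to -0.44. Left of the dotted line at 100, none of the 27 genes was called.

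ER folding genes with deep coverage all lay below 0, and 1 passed. PDIA3, a disulfide isomerase that works with calnexin and calreticulin on glycoproteins, had a base mean of 19997 and fell by 0.33 on the log2 scale (SE 0.07, 95% interval -0.46 to -0.20, adjusted p = 8.51e-06) in the authors' deposited table. The fit corresponds to 17708 normalized reads per knockout library and 22287 per EGFR+vIII library. Its processed copy PDIA3P1, with which reads can be shared, had -0.56 (SE 0.14 and adjusted p = 0.000704) in the authors' deposited table. PDIA4, a second isomerase, had a base mean of 12383 and -0.13 (SE 0.07 and adjusted p = 0.198), and SDF2L1, a cofactor of the chaperone BiP, had 381 and -0.07 (SE 0.16 and adjusted p = 0.838) in the authors' deposited table. Relative to its neighbours, whose median was 0.13, PDIA4 had -0.26 (adjusted p = 0.00131).

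MANF, a secreted ER stress protein, had a base mean of 2059 and a log2 fold change of -0.32 (SE 0.25 and adjusted p = 0.418) in the authors' deposited table. This change is as large as that of PDIA3, but its SE was above those of 100% of the 200 accessions nearest to it in base mean, whose median SE was 0.09. Which libraries this spread comes from is not given. The remaining folding genes had few reads. HYOU1, a large ER chaperone, had 20.9 normalized reads over all libraries, CRELD2 32.4 and CANX (calnexin) 35.6, with log2 fold changes of 0.34 (SE 0.33), -0.13 (SE 0.34) and 0.15 (SE 0.37) in the authors' deposited table. PDIA6 had 13.7 such reads and no adjusted p. The second tested transcript of CANX went the other way, at -0.20 (SE 0.32) in the authors' deposited table.

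Both measurable genes of ER-associated degradation fell. EDEM1, which tags misfolded glycoproteins for export from the ER, had a base mean of 6326 and fell by 0.44 on the log2 scale (SE 0.09, 95% interval -0.61 to -0.27, adjusted p = 3.78e-06) in the authors' deposited table. SEL1L, the adaptor of the export ligase SYVN1, had a base mean of 6318 and fell by 0.38 (SE 0.09, 95% interval -0.55 to -0.20, adjusted p = 0.000198) in the authors' deposited table. These falls correspond to 5366 against 7285 normalized reads per library for EDEM1 and 5493 against 7144 for SEL1L, knockout first. HERPUD1, a stress-induced ER membrane protein of the same pathway, had 16.7 normalized reads over all libraries and a log2 value of -0.19 (SE 0.29), and the authors' deposited table gives it no adjusted p. The ligase SYVN1 is listed at 0. The neighbours of EDEM1 and SEL1L had medians of -0.05 and -0.07.

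**Figure D4:**
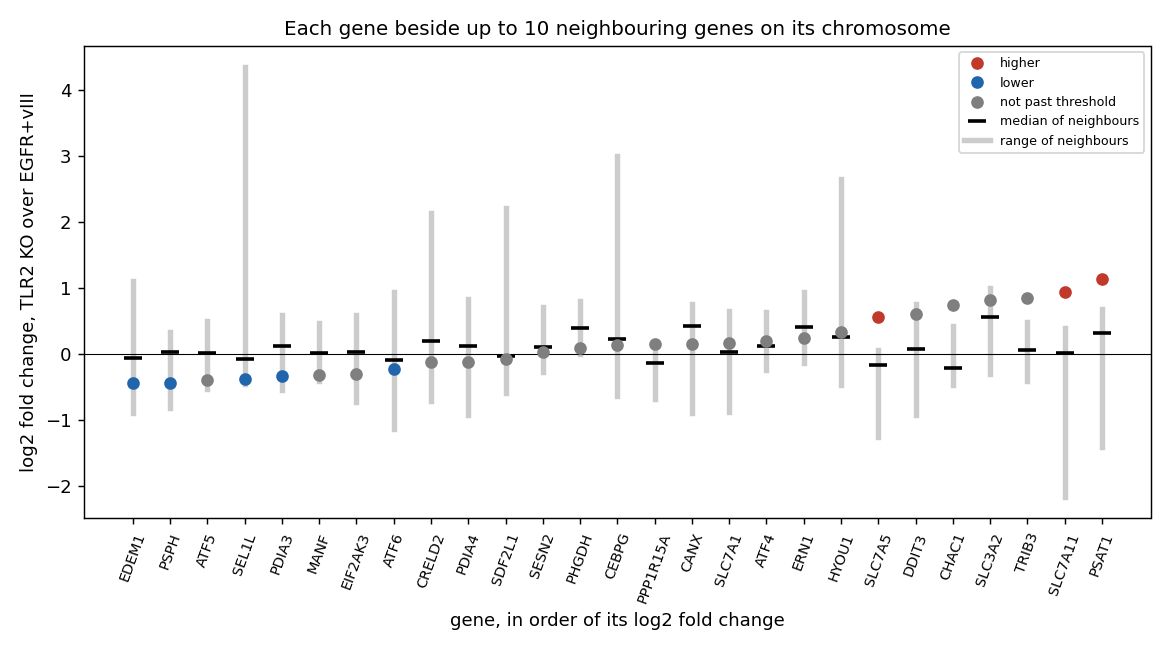
Log2 fold change (y axis, knockout over EGFR+vIII) of each of the 27 genes (points, coloured by call) beside the median (black bar) and range (grey) of up to 10 neighbouring genes with an adjusted p on the same chromosome. SLC7A11, SLC7A5 and PSAT1 lie above the whole range of their neighbours, and the 5 genes that fell lie inside it.

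Ordered by base mean per kilobase of the matching GENCODE transcript, the 16 deeply read genes ranged from PDIA3 (5366) and PDIA4 (4265) to ERN1 (49.3). MANF (1786), PHGDH (1393), EDEM1 (1029), SEL1L (797) and SLC7A1 (748) followed the isomerases. SLC7A11, the gene with the smallest adjusted p of the group, was among the lowest, at 140 on a transcript of 9.64 kilobases. The spread of these levels over libraries is not given in the table, so neighbours in the order cannot be separated.

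Further genes of the same pathways came from lists written together with the main list. In ER folding and oxidation, 0 rose and 8 fell of 16 genes with an adjusted p, with a median log2 fold change of -0.24. At a base mean of at least 100, 8 of 13 fell (61.5%), against 23.1% of accessions lower at that level. The 8 genes had base means from 510 (ERO1B) to 73950 (CALR) in the authors' deposited table. The 23.1% is not matched to such levels, and the part of the level in this count was not tested. The 4 largest falls were those of CREB3L1, an ER-bound transcription factor (-0.66, SE 0.08), ERO1B, an oxidase that recharges the isomerases (-0.64, SE 0.13), HSPA13 (-0.50, SE 0.09) and the co-chaperone DNAJB11 (-0.44, SE 0.10) in the authors' deposited table. The other 4 were DNAJC3, HSPA5, CALR and P4HB, of which HSPA5, the central ER chaperone BiP, had -0.31 (SE 0.08 and adjusted p = 0.000686) in the authors' deposited table. The chaperone HSP90B1 (-0.08, SE 0.09) and the oxidase ERO1A (-0.17, SE 0.07), named after their values were seen, did not pass in the authors' deposited table. With Wald scores scaled by their own spread, 2 of the 8 falls remained (CREB3L1 and HSPA13), and 0 passed a test against 1.5-fold.

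In the list of other ER degradation and stress genes, 1 rose and 2 fell of 7 with an adjusted p. At a base mean of at least 100 these were 3 of 6, against 43.0% of all accessions called at that level. The proteases MBTPS1 (-0.39, SE 0.08) and MBTPS2 (-0.42, SE 0.08), which cut ATF6 free in the Golgi, fell, and the ER ubiquitin-conjugating enzyme UBE2J1 rose (0.19, SE 0.07) in the authors' deposited table. Of these 3, MBTPS2 alone remained called relative to neighbouring genes and with scaled Wald scores. In translocation and export, 1 rose and 4 fell of 10, against 12.3% of all genes higher and 12.7% lower. All 5 were among 8 genes with a base mean of at least 100, where 19.9% of accessions were higher and 23.1% lower. KDELR3, a retrieval receptor (-0.87, SE 0.12), and LMAN1, a cargo receptor (-0.60, SE 0.10), fell in the authors' deposited table. The channel subunits SEC61A1 (-0.39, SE 0.07) and SEC61B also fell in the authors' deposited table. SSR2, a translocon-associated subunit, rose (0.28, SE 0.08) in the authors' deposited table. With scaled Wald scores, the calls of SEC61B and SSR2 were lost.

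Of 13 further ATF4 targets with an adjusted p, 3 rose and 2 fell, against 25.1% of all genes called in either direction. At a base mean of at least 100 these were 5 of 7, against 43.0% of accessions. SLC1A5, a glutamine carrier, rose (0.72, SE 0.09), as did TXNIP (0.54, SE 0.11) and DDIT4 (0.30, SE 0.09), while GDF15 (-1.70, SE 0.13) and STC2 (-0.52, SE 0.08), which are secreted, fell in the authors' deposited table. The call of DDIT4 was lost relative to neighbouring genes and with scaled Wald scores. Of 8 tested genes of eIF2, its kinases and its exchange factor eIF2B, 4 rose and 1 fell, against 12.3% of all genes higher and 12.7% lower. All 5 were among 7 genes with a base mean of at least 100, where 19.9% of accessions were higher and 23.1% lower. The eIF2B subunits EIF2B1 (0.62, SE 0.09) and EIF2B2 (0.34, SE 0.08) rose in the authors' deposited table. PPP1R15B, the constitutive counterpart of PPP1R15A, also rose (0.45, SE 0.10) in the authors' deposited table. The amino acid sensing kinase EIF2AK4, GCN2, fell (-0.32, SE 0.07) in the authors' deposited table. EIF2S1, the phosphorylated subunit of eIF2, had a rise of 0.23 (SE 0.07) in the authors' deposited table. With scaled Wald scores, EIF2B1 alone of these 5 remained called. In a test of more than 1.5-fold, GDF15 was the only one of the further genes on any of the 6 lists that passed.

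**Figure D5:**
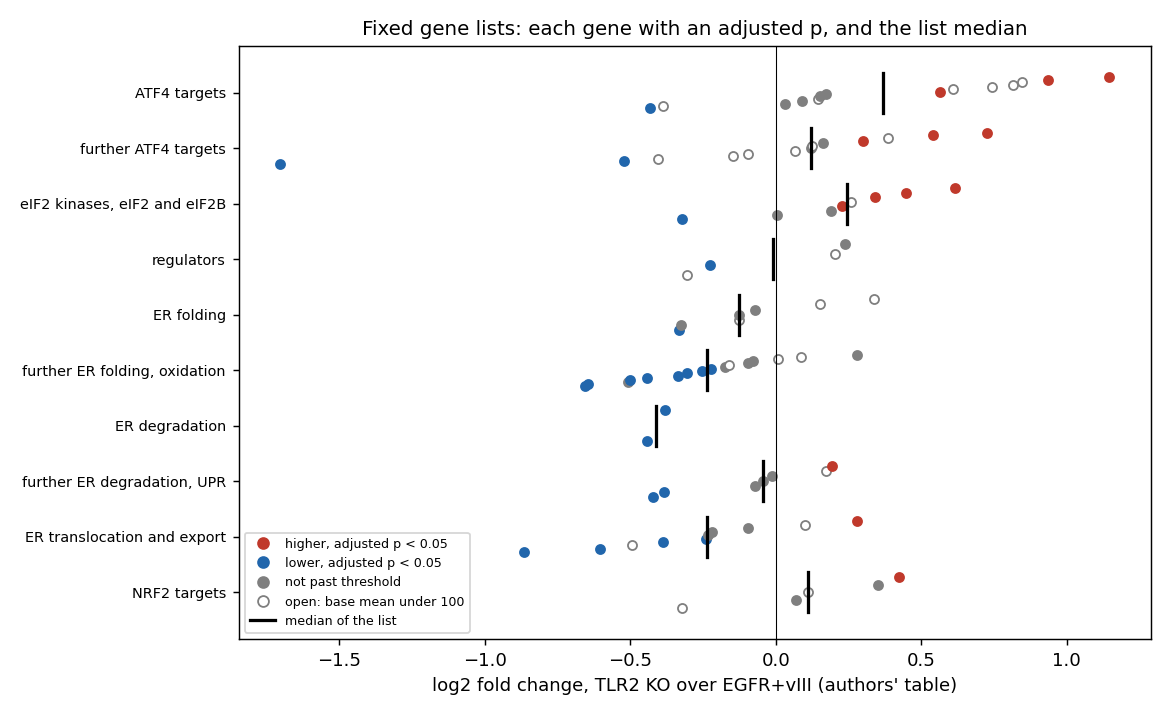
Log2 fold change (x axis, knockout over EGFR+vIII) of each gene with an adjusted p in the 4 groups of the main list and in 6 further fixed lists, with the median of each list as a black bar. Higher calls are red and lower calls blue. ER folding genes of the main list show 1 lower and 0 higher of 7. Further ER folding and oxidation genes show 8 lower and 0 higher of 16. ATF4 targets of the main list show 3 higher and 1 lower of 14, and further ATF4 targets 3 higher and 2 lower of 13. Of all genes with an adjusted p, 12.3% were higher and 12.7% lower.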

How the data were processed

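RNA of 6 libraries, 3 per group, was compared by the authors. The submitters' processing notes name STAR, DESeq2 and hg38; for versions, settings, counter and annotation the sources used here say nothing. For 67933 accessions the authors deposited, per the file headers, a base mean (a signal of abundance), a log2 fold change with its SE, a Wald score, a p-value and an adjusted p-value. Recomputing the Benjamini-Hochberg adjustment over 10303 accessions gave the authors' deposited adjusted p (largest gap 4.48e-07). The largest SE is 0.382, also where reads are few. ATF3, with 1 read in 1 library, is given a log2 fold change of 0.04 with an SE of 0.14. Whether fold changes were shrunk toward 0 is not stated. The fold changes, intervals and fitted levels of thinly read genes may therefore understate a change and its uncertainty. Depth per library is not stated.

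From these values, accessions were named with the RefSeq gene table of GRCh38.p14 (98.8% matched), and each gene was read from the one with the highest base mean. Intervals at 95% and the alternatives in the closing section were computed from the log2 fold change and SE with Python 3.11.15, pandas 2.3.3, numpy 2.4.6 and scipy 1.17.1, by code tested on simulated data. Fitted levels per group combine the base mean with the fold change. Transcript lengths came from GENCODE release 29 transcripts matched by accession. Neighbours are the 5 genes with an adjusted p on each side. The text names all 38 genes of the main list and, of each further list, the called genes with the 4 largest changes; called genes beyond these 4 were added to complete the counts after their values were seen. The genes and lists were chosen with earlier results of these data known.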

Additional observations from a re-analysis of the deposited data

How the results depend on the processing

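The calls were recomputed under 9 alternatives for 6 of the 8 genes, and under 8 for PSAT1 and SEL1L, which have 2 accessions each. SLC7A11 was called in all 9. Tested against 1.5-fold instead of no change, 1 gene was higher, 0 were lower and 1 was called in either direction, and PSAT1 had an adjusted p of 0.0654. With Wald scores scaled by their central spread (1.75), 3 were higher, 1 was lower (EDEM1) and 4 were called in all, and the calls of ATF6 (adjusted p = 0.484), PSPH (0.169), SEL1L (0.138) and PDIA3 (0.0543) were lost. The median log2 fold change of ATF4 targets, 0.37, was 0.17 with no filter on base mean, 0.15 among genes with 1 accession and 0.16 where the base mean reached 100. Relative to neighbouring genes, CHAC1 (0.96, adjusted p = 0.0423), PDIA4 and PHGDH were called as well, and ATF6 was not. No direction of a called gene reversed. No paired analysis was possible because the table has no value per library, and for the same reason no library could be left out. Genes with few reads or several accessions limit what can be read: 11 of the 38 had no adjusted p.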

Other observations

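After the SE of MANF had been seen, the SE of each of the 16 genes with a base mean of at least 100 was set against its level. Against the 200 accessions nearest in base mean, the SE of MANF exceeded 100%, that of PPP1R15A 95.5%, that of SESN2 89.5%, that of SDF2L1 84.5%, that of SEL1L 83.0% and that of EDEM1 79.0%. The shares were 62.5% for SLC7A1, 57.5% for PSPH and 52.5% for PHGDH. They were 28.5% for SLC7A5, 27.0% for PSAT1, 21.5% for ERN1, 19.0% for PDIA4, 16.5% for SLC7A11, 13.5% for PDIA3 and 12.5% for ATF6, so the 16 genes lay on both sides of their level. Of the further ER genes, PPIB, a proline isomerase with a base mean of 13721, had a log2 fold change of -0.51 with an SE of 0.24 (adjusted p = 0.125), and SEC62 had -0.23 with an SE of 0.23 in the authors' deposited table. These 2 were chosen after their values were seen.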
